A study of Mus musculus with 18 samples.

Results

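The 9 genes described here handle iron in mouse cells, and their transcripts were counted in sorted thymic invariant natural killer T (iNKT) cells. They are Trf, Tfrc, Slc11a2, Steap3, Fth1, Ftl1, Slc40a1, Ireb2 and Aco1, chosen by symbol from a list of functions in iron uptake, storage, export and regulation, when results from the same libraries were already known. All 9 are among the 23337 gene symbols of the count table, and 8 of them were among the 11118 genes with enough counts to be tested. The fold changes and adjusted p-values below therefore say where each gene stood among all tested genes, and are a description rather than independent evidence about the set.

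The libraries were made from thymocytes of BALB/c mice that were either WT or SKG. SKG mice carry a spontaneous point mutation of Zap70, the kinase that relays signals from the T cell receptor (TCR), and WT and SKG animals were separate lines bred from the F2 of a cross between SKG and BALB/cJ, so the mutation was present in every cell type and from the start of development. Sorted cells bound the CD1d tetramer loaded with α-galactosylceramide and were ICOS lo CD49a+ (NKT1), CD49a- Sdc-1- with ICOS hi and with CD4 and TCRβ hi (NKT2) or CD49a- Sdc-1+ ICOS hi (NKT17). The labels list no treatment. The age and sex of the animals, and whether a library came from 1 mouse or from pooled mice, are not given in the sources used here. Each of the 6 groups had 3 libraries, so p-values measure only the spread between these samples, which may in part be technical.

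The 18 libraries held between 4391029 and 8895917 counts. Levels are given as CPM, each count divided by its library's TMM-scaled total and put on a common scale, with TMM factors between 0.928 and 1.07. The labelled subsets had the highest sums of their own markers. Sdc1 in the NKT17 list, Itga1 (CD49a) in the NKT1 list, and Icos and Cd4 in the NKT2 list encode proteins used in sorting, so these sums were partly set by the gates. The 5 NKT17 markers Il23r, Il17re, Sdc1, Ccr6 and Il1r1 summed to 1525 to 1737 CPM in the NKT17 libraries and to at most 5.51 CPM elsewhere, and the 6 NKT1 markers summed to 3815 to 5102 CPM in NKT1 and to at most 406 CPM elsewhere. The 6 NKT2 markers (Zbtb16, Il4, Gata3, Icos, Ccr7 and Cd4) were less exclusive, at 1660 to 2448 CPM in NKT2, 1388 to 1529 CPM in NKT17 and 513 to 744 CPM in NKT1. By the thresholds given below, Gata3 differed in no pair of subsets, and Il4 and Cd4 were higher in SKG NKT1 than in SKG NKT17. Zap70 transcripts were present in every group, at means of 396 to 789 CPM, and since the mutation is a base change their level does not check the genotype labels.

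Cells take up iron mainly as ferric iron bound to transferrin, the protein encoded by Trf, which docks on the transferrin receptor (Tfrc, also called CD71) and is carried into endosomes. There the iron is released, reduced by Steap3 and moved to the cytosol by the transporter Slc11a2 (DMT1), after which it is used in haem and iron-sulphur clusters, stored in ferritin made of heavy (Fth1) and light (Ftl1) chains, or exported by ferroportin (Slc40a1). The iron regulatory proteins, encoded by Aco1 (IRP1) and Ireb2 (IRP2), bind stem-loops called iron-responsive elements when iron is scarce. An element before the coding sequence blocks translation, which counts of RNA do not show, and elements after it protect the Tfrc transcript from decay. Dividing lymphocytes are known for high transferrin receptor.

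The elements themselves are shown because their position, before or after the coding sequence, decides whether this control would be visible in counts of RNA. Transcripts were searched on their sense strand for the element's usual form, 27 bases with an unpaired C, 5 paired bases on each side of a 6-base loop CAGTGN (the loop's last base not G), and at least 3 pairs below the C. The form was found in the untranslated regions of 4 of the 9 members and of 32 of 22611 protein-coding genes (0.142%). In the sequences below, read from GENCODE M1 transcripts on the NCBIM37 (mm9) genome and written 5′ to 3′, capitals mark the loop. A match is not evidence of binding, and a gene without a match merely lacks these letters in its annotated untranslated regions. Elements whose upper stem is not fully paired were not searched for, so a gene without a match, such as Slc11a2, is not shown to lack an element.
Fth1, 5′ untranslated region, chr19:10057223-10057249, plus strand: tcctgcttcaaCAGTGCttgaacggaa
Ftl1, 5′ untranslated region, chr7:52715150-52715176, minus strand: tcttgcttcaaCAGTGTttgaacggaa
Slc40a1, 5′ untranslated region, chr1:45982311-45982337, minus strand: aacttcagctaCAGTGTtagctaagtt
Tfrc, 3′ untranslated region, chr16:32631306-32631332, plus strand: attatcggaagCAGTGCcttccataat
Tfrc, 3′ untranslated region, chr16:32631685-32631711, plus strand: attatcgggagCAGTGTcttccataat
Tfrc, 3′ untranslated region, chr16:32631750-32631776, plus strand: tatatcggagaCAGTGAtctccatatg
Tfrc, 3′ untranslated region, chr16:32631797-32631823, plus strand: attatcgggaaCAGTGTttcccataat

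Compared per length of exon, the ferritin transcripts were far above the other members. The median level over the 18 libraries, in CPM per kilobase of exon (RPKM), was 1875 for Fth1 and 1472 for Ftl1. Trf had a median of 44.0 RPKM and by far the widest range, from 0.128 to 239 RPKM. Slc11a2 followed at 20.7, then Aco1 at 6.81, Ireb2 at 4.20, Tfrc at 3.93 and Steap3 at 1.19 RPKM, and Slc40a1 had a median of 0.

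A gene was called when its edgeR adjusted p was under 0.1 and its fold change was at least 1.5, both being thresholds of the study, in a fit of all 18 libraries. In SKG against WT cells, 1 of the 8 tested members was called in NKT1, where 3.27% of all tested genes were called, 2 were called in NKT2 (7.95% of all genes) and 3 in NKT17 (8.37%). All of these calls were lower in SKG. Between subsets of WT mice, 4 members differed between NKT1 and NKT2 (27.5% of all genes), 5 between NKT1 and NKT17 (24.7%) and 3 between NKT17 and NKT2 (20.0%). In SKG mice the corresponding numbers were 4 (18.7%), 2 (22.8%) and 4 (18.8%). When the SKG effect itself was compared between subsets, 1 member differed between NKT2 and NKT1 (3.87% of all genes), 1 between NKT17 and NKT1 (4.17%) and none between NKT17 and NKT2 (2.19%). In that last comparison DESeq2 called 1 member, Trf. There edgeR gave 4 members (Trf, Tfrc, Ftl1 and Aco1) an unadjusted p under 0.05, and in the other comparisons 1 to 6 members. The share of all tested genes under this unadjusted threshold was not counted, so these numbers cannot be weighed against it. With 8 genes tested, each member shifts these shares by a large step, and the comparisons share libraries, so they are read gene by gene below.

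The median log2 fold change of the 8 tested members in SKG against WT, in the order NKT1, NKT2, NKT17, was -0.16, -0.34 and -0.17, and over all tested genes it was -0.0067, -0.0036 and 0.0045. The calls were Trf in NKT1 (3.27% of all genes called), Trf and Slc11a2 in NKT2 (7.95%) and Trf, Tfrc and Slc11a2 in NKT17 (8.37%). These genes belong to the carrier and uptake group, as does Steap3, which was not called in any subset. Neither ferritin gene and neither regulatory gene was called in SKG against WT cells of any subset. The share of all genes called in any of the subsets was not counted. With so few genes in a group, the calls do not set one group apart from another.

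Trf (chr9:103106331-103132774, minus strand, with this and the following positions on NCBIM37), the iron carrier itself, was the member whose level varied most with subset and genotype. WT NKT1 libraries (replicates 1 to 3) had 555, 791 and 761 CPM, and SKG NKT1 libraries had 304, 254 and 305 CPM. WT NKT2 libraries had 388, 346 and 244 CPM, and SKG NKT2 libraries had 5.50, 6.46 and 5.29 CPM. WT NKT17 libraries had 47.2, 36.8 and 29.6 CPM, and SKG NKT17 libraries had 0.425, 4.88 and 1.5 CPM. The SKG libraries were below all WT libraries of the same subset in each of the 3 subsets, and the SKG NKT2 libraries were below even those of WT NKT17.

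**Figure D1:**
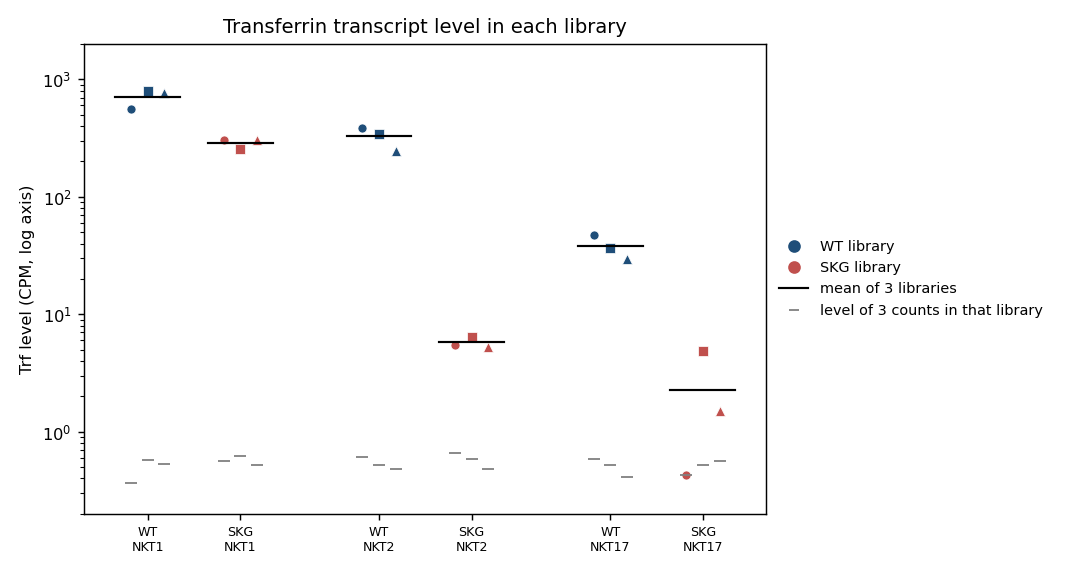
Trf level in each of the 18 libraries, in CPM on a log axis, by genotype and subset. Circles, squares and triangles are replicates 1, 2 and 3, black bars are means of 3 libraries and grey dashes give the level that 3 counts would have in that library. SKG libraries lie below the WT libraries of their subset, and SKG NKT17 replicate 1, at 0.425 CPM, sits on the level of 3 counts.

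Relative to WT, Trf was 2.44-fold lower in SKG NKT1 (-1.29 log2 units, SE 0.29, edgeR adjusted p = 0.0307), 56.6-fold lower in SKG NKT2 (-5.82, SE 0.39, edgeR adjusted p = 2.87e-07) and 17.1-fold lower in SKG NKT17 (-4.10, SE 0.44, edgeR adjusted p = 3.14e-05). By size it was number 16 among the genes called lower in NKT2, number 49 in NKT17 and number 99 in NKT1. The call in NKT1 did not hold without WT NKT1 replicate 2 (edgeR adjusted p = 0.102), SKG NKT1 replicate 1 (0.108) or SKG NKT1 replicate 2 (0.133), although the libraries of the 2 genotypes did not overlap. The calls in NKT2 and NKT17 held under all 14 alternatives. In SKG NKT17 the values rest on 3, 28 and 8 counts, and the log2 fold change ranged from -5.36 to -3.53 over those alternatives.

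The fall of Trf differed between subsets. It was larger in NKT2 than in NKT1 by 4.54 log2 units (-4.54, SE 0.48, edgeR adjusted p = 8.71e-05) and larger in NKT17 than in NKT1 by 2.81 (-2.81, SE 0.54, edgeR adjusted p = 0.0125). The falls in NKT17 and NKT2 were not shown to differ (difference 1.72, SE 0.65, edgeR adjusted p = 0.317), but DESeq2 (adjusted p = 0.0965) and the fit without SKG NKT17 replicate 1 (2.29, edgeR adjusted p = 0.0363) called that difference.

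In WT mice the order of Trf was NKT1, NKT2, NKT17. NKT1 exceeded NKT2 by 1.11 log2 units (SE 0.29, edgeR adjusted p = 0.00973) and NKT17 by 4.22 (SE 0.34, edgeR adjusted p = 1.88e-07), and NKT17 was below NKT2 (-3.11, SE 0.32, edgeR adjusted p = 5.16e-06). The order was the same in SKG mice, with wider steps from NKT1 to NKT2 (5.64, SE 0.39, edgeR adjusted p = 7.65e-08) and from NKT1 to NKT17 (7.03, SE 0.44, edgeR adjusted p = 1.59e-08). The last step, NKT17 below NKT2 in SKG (-1.39, SE 0.53, edgeR adjusted p = 0.0844), was called in just 6 of 14 alternatives, and the log2 fold change was -0.82 (edgeR adjusted p = 0.219) without SKG NKT17 replicate 1 and -2.65 without replicate 2. These cells were measured in bulk, and fewer cells with the transcript cannot be told apart from less transcript per cell.

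Markers of cells known for iron handling, and of other thymic cells, were read in the same libraries. Of 7 red cell genes, the 4 globin genes Hba-a1, Hba-a2, Hbb-b1 and Hbb-b2 were at 0 in all 18 libraries, and the list summed to at most 1.91 CPM. The 10 genes of macrophages and myeloid cells summed to at most 18.4 CPM in any library, with Mertk at 0 in every library. The 8 genes of double-positive thymocytes summed to 59.8 to 77.3 CPM in SKG NKT17 and 36.3 to 54.0 CPM in WT NKT17, with Cd8b1 called higher in SKG. The 5 B cell genes summed to 24.7 to 40.7 CPM in SKG NKT17 and 7.81 to 11.1 CPM in WT NKT17, through Cd79b, with Pax5 at 0 in both. The part of these differences in the results for NKT17 was not tested.

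Slc11a2 (chr15:100218329-100255503), which moves iron out of the endosome, was lower in SKG cells of NKT2 and NKT17 and had an order among subsets unlike that of Trf. WT NKT17 libraries had 294, 284 and 316 CPM against 154, 145 and 168 CPM in SKG NKT17. WT NKT1 libraries had 148, 142 and 151 CPM against 103, 104 and 121 CPM in SKG NKT1. WT NKT2 libraries had 65.7, 53.4 and 80.4 CPM against 43.8, 38.7 and 39.1 CPM in SKG NKT2. In all 3 subsets every SKG library was below every WT library.

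On the log2 scale, Slc11a2 in SKG against WT stood at -0.94 in NKT17 (SE 0.12, edgeR adjusted p = 2.00e-05), -0.72 in NKT2 (SE 0.13, edgeR adjusted p = 0.000768) and -0.43 in NKT1 (SE 0.13, edgeR adjusted p = 0.0732). The value in NKT1 was under the fold minimum and was not called. The call in NKT2 was lost without WT NKT2 replicate 3, where the log2 fold change was -0.56 and under the fold minimum. The effects were not shown to differ between subsets, with differences of -0.29 (SE 0.18, edgeR adjusted p = 0.523) for NKT2 minus NKT1, -0.51 (SE 0.18, edgeR adjusted p = 0.137) for NKT17 minus NKT1 and -0.22 (SE 0.18, edgeR adjusted p = 0.757) for NKT17 minus NKT2.

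Among WT subsets Slc11a2 was highest in NKT17, then NKT1, then NKT2. NKT17 exceeded NKT2 by 2.16 log2 units (SE 0.13, edgeR adjusted p = 1.71e-11), NKT1 exceeded NKT2 by 1.14 (SE 0.13, edgeR adjusted p = 2.69e-07) and NKT1 was below NKT17 (-1.02, SE 0.12, edgeR adjusted p = 8.15e-07). In SKG mice NKT17 and NKT1 were again above NKT2, by 1.94 (edgeR adjusted p = 1.75e-10) and 1.43 (edgeR adjusted p = 2.04e-08). The step between NKT1 and NKT17 in SKG, -0.51 (SE 0.13, edgeR adjusted p = 0.00346), was under the fold minimum and was not called, while the libraries did not overlap. Without SKG NKT1 replicate 3 it was -0.59 and called. Exons of Slc11a2 overlap those of Gm5475 on the other strand by 402 bases, and whether reads were counted by strand is not given in the sources used here.

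Tfrc (chr16:32609006-32632880), the receptor, fell in SKG NKT17 alone among the 3 tests of genotype. WT NKT17 libraries had 41.9, 24.8 and 45.9 CPM and SKG NKT17 libraries had 13.0, 16.7 and 18.0 CPM, without overlap. WT NKT2 libraries had 40.2, 32.5 and 40.2 CPM and SKG NKT2 libraries had 28.8, 28.6 and 38.7 CPM. WT NKT1 libraries had 23.5, 18.9 and 23.7 CPM and SKG NKT1 libraries had 20.8, 11.2 and 19.4 CPM. The genotypes overlapped in NKT1 and NKT2.

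On the log2 scale, Tfrc in SKG against WT stood at -1.24 in NKT17 (SE 0.25, edgeR adjusted p = 0.00226), -0.23 in NKT2 (SE 0.25, edgeR adjusted p = 0.669) and -0.36 in NKT1 (SE 0.25, edgeR adjusted p = 0.595). The effect in NKT17 was not shown to differ from that in NKT1 (-0.88, SE 0.36, edgeR adjusted p = 0.229) or in NKT2 (-1.01, SE 0.35, edgeR adjusted p = 0.213). Without WT NKT17 replicate 2, the lowest WT NKT17 library, both differences were called, at -1.14 (edgeR adjusted p = 0.0773) and -1.24 (edgeR adjusted p = 0.0692), and the first was also called without SKG NKT1 replicate 2 (-1.14, edgeR adjusted p = 0.0997).

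Between subsets, WT NKT1 had less Tfrc than WT NKT2 (-0.77, SE 0.25, edgeR adjusted p = 0.0206) and WT NKT17 (-0.77, SE 0.25, edgeR adjusted p = 0.0224). The second call was lost without WT NKT17 replicate 3 (-0.60, edgeR adjusted p = 0.120). In SKG mice NKT2 exceeded both other subsets, at -0.90 log2 units (SE 0.25, edgeR adjusted p = 0.0126) for NKT1 against NKT2 and -1.01 (SE 0.25, edgeR adjusted p = 0.00492) for NKT17 against NKT2.

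Genes of the cell cycle and Tfrc were called together in some comparisons and apart in others. Of 16 proliferation genes, which included Mki67, Top2a and Mcm2, 12 were called lower in SKG NKT17 (median log2 fold change -0.99, 8.37% of all genes called). In SKG NKT2, 6 were called lower (median -0.63, 7.95% of all genes called), and in SKG NKT1, 1 was (median -0.21, 3.27%). None of the 16 was called higher in any of the 3 subsets. Their summed level was 681 to 845 CPM in SKG NKT17 and 1198 to 1457 CPM in WT NKT17, 1326 to 1541 against 2240 to 2536 CPM in NKT2, and 1027 to 1284 against 1146 to 1587 CPM in NKT1. In NKT2 the sum was thus lower in every SKG library while Tfrc overlapped between genotypes. Between subsets, 13 of the 16 genes were called lower in WT NKT1 compared with WT NKT2 (27.5% of all genes were called), where Tfrc was called lower too. In WT NKT17 compared with WT NKT2, 15 were called lower (median -1.17, 20.0% of all genes called) while Tfrc was not called (edgeR adjusted p = 1.00). In WT NKT1 compared with WT NKT17, Tfrc was called lower while 3 of the 16 were (median -0.04, 24.7% of all genes called). In SKG NKT1 compared with SKG NKT17, 8 were called higher and none lower (median 0.76, 22.8% of all genes called) while Tfrc, at 0.11, was not called. In SKG NKT2, the subset with the most Tfrc among SKG cells, 7 of the 16 were called higher than in SKG NKT1 (18.7% of all genes called) and 13 higher than in SKG NKT17 (18.8%). The part of cell division in the level of Tfrc was not tested.

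Steap3 (chr1:122087334-122169282), the endosomal reductase, differed between subsets and not measurably between genotypes. WT NKT1 libraries had 19.2, 17.6 and 27.1 CPM, WT NKT2 libraries had 10.8, 4.54 and 8.72 CPM and WT NKT17 libraries had 3.90, 1.04 and 3.70 CPM. SKG libraries had 16.3, 18.5 and 24.9 CPM in NKT1, 6.16, 7.43 and 4.01 CPM in NKT2 and 1.42, 3.31 and 2.44 CPM in NKT17. The 3 subsets did not overlap in either genotype, and WT and SKG libraries overlapped in every subset.

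In WT mice Steap3 in NKT1 exceeded NKT2 by 1.41 log2 units (SE 0.40, edgeR adjusted p = 0.00976) and NKT17 by 2.87 (SE 0.44, edgeR adjusted p = 1.90e-05), and NKT17 was below NKT2 (-1.46, SE 0.44, edgeR adjusted p = 0.0185). In SKG mice the same steps were 1.77 (edgeR adjusted p = 0.00315), 3.07 (edgeR adjusted p = 1.28e-05) and -1.30 (edgeR adjusted p = 0.0474). The last of these was lost in 4 of 14 alternatives, those without SKG NKT2 replicate 1 or 2 or SKG NKT17 replicate 1 or 3 (edgeR adjusted p up to 0.204). NKT17 libraries held between 6 and 27 Steap3 counts each, so a genotype difference in that subset would be hard to detect at this depth.

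**Figure D2:**
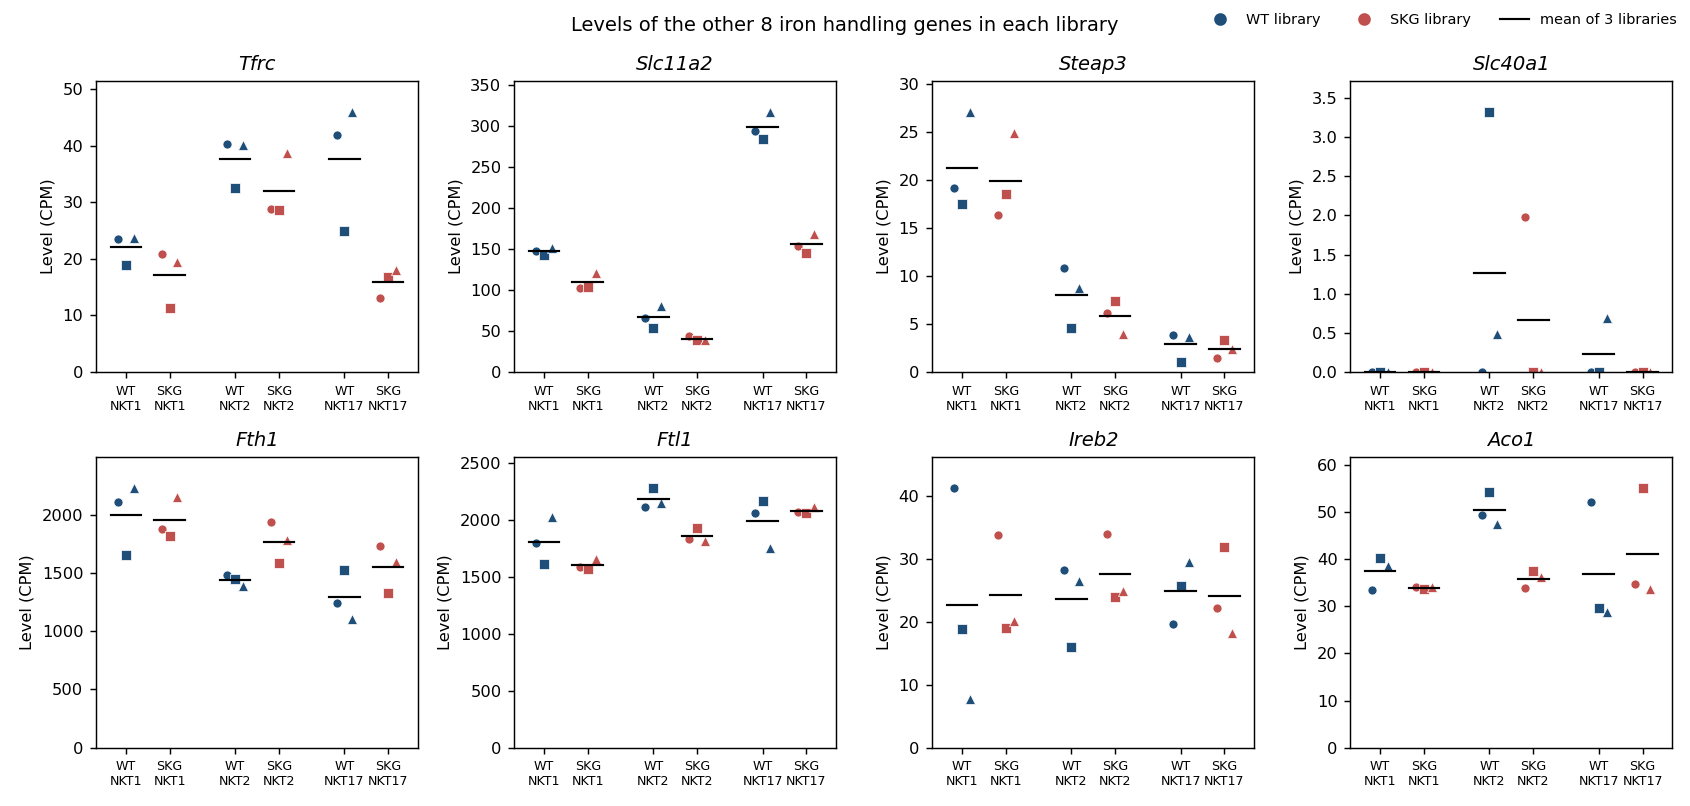
Levels of the other 8 iron handling genes in each library, in CPM on linear axes that start at 0, by genotype and subset. Circles, squares and triangles are replicates 1, 2 and 3 and black bars are means of 3 libraries. Slc11a2 separates WT from SKG in every subset, Steap3 separates the subsets in both genotypes, and Ireb2 spreads most within WT NKT1 (7.79 to 41.3 CPM).

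The ferritin transcripts were abundant in all groups and changed little. Fth1 (chr19:10057193-10059582), the chain that oxidises iron for storage, lay between 1105 and 2229 CPM, and Ftl1 (chr7:52713314-52715254), the light chain, between 1567 and 2280 CPM over the 18 libraries. Fth1 was higher in NKT1 than in NKT17 of WT mice (0.63, SE 0.13, edgeR adjusted p = 0.000538), from 2109, 1655 and 2229 CPM against 1246, 1523 and 1105 CPM, and this was the one ferritin difference called. It fell under the fold minimum without WT NKT1 replicate 3 (0.54) or WT NKT17 replicate 1 (0.58) or 3 (0.52).

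Several smaller ferritin differences had low adjusted p-values and were under the fold minimum. In WT mice Fth1 was 0.47 log2 units higher (SE 0.13, edgeR adjusted p = 0.00647) and Ftl1 0.27 lower (-0.27, SE 0.09, edgeR adjusted p = 0.0310) in NKT1 than in NKT2. In SKG mice the log2 fold change of NKT1 against NKT17 was 0.33 for Fth1 (SE 0.13, edgeR adjusted p = 0.0610) and -0.38 for Ftl1 (SE 0.09, edgeR adjusted p = 0.00401). In both genotypes the mean of the light chain was lowest, and that of the heavy chain highest, in NKT1.

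In NKT2, Fth1 in SKG libraries (1938, 1585 and 1781 CPM) was above all WT libraries (1480, 1445 and 1391 CPM), by 0.30 log2 units (SE 0.13, edgeR adjusted p = 0.178). Ftl1 went the other way, with 1834, 1924 and 1817 CPM in SKG NKT2 and 2116, 2280 and 2150 CPM in WT NKT2 (-0.23, SE 0.09, edgeR adjusted p = 0.147). Fth1 in SKG NKT17 differed from WT by 0.27 log2 units (SE 0.13, edgeR adjusted p = 0.232) with overlapping libraries. None of these 3 was called under any of the 14 alternatives. Ferritin genes have annotated copies of similar name in the genome (Fth-ps2 and Fthl17, and Ftl2), so reads could have been shared with or lost to them, and ferritin is controlled largely at translation, which these counts do not measure.

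Slc40a1 (chr1:45964915-45982439), the exporter, was close to absent. It had a count in 4 of 18 libraries, with 19 and 3 counts in WT NKT2 replicates 2 and 3, 9 in SKG NKT2 replicate 1 and 5 in WT NKT17 replicate 3, and it was not tested. In the other libraries a count of 0 allows a level of up to 3 counts, which is 0.362 to 0.660 CPM over the 18 libraries and covers counting error only. The gene was at 0 in all 6 NKT1 libraries. Ferroportin is best known from macrophages, and the myeloid gene list reached its highest sum, 18.4 CPM, in a WT NKT2 library. The sums were kept as a range per group, so whether that library had Slc40a1 counts is not given here. Whether the Slc40a1 counts came from macrophages was not tested.

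No difference of the regulatory genes was called with all libraries in the fit. Ireb2 (chr9:54711562-54760341) lay between 7.79 and 41.3 CPM, and both extremes were WT NKT1 libraries (41.3, 18.9 and 7.79 CPM), so the spread within that group exceeded all differences between group means. Its log2 fold change in WT was -0.04 (SE 0.42, edgeR adjusted p = 0.961) for NKT1 against NKT2 and -0.13 (SE 0.42, edgeR adjusted p = 0.868) for NKT1 against NKT17. Without WT NKT1 replicate 1 both were called, at -0.84 (edgeR adjusted p = 0.0940) and -0.92 (edgeR adjusted p = 0.0735), and without replicate 3 both were positive.

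Aco1 (chr4:40090114-40146042), which is also the cytosolic aconitase when it carries an iron-sulphur cluster, lay between 28.8 and 55.1 CPM. WT NKT2 libraries, at 49.4, 54.1 and 47.5 CPM, were above SKG NKT2 libraries, at 33.9, 37.4 and 36.1 CPM, and above WT NKT1 libraries, at 33.5, 40.3 and 38.6 CPM. Neither difference was called (-0.49, SE 0.21, edgeR adjusted p = 0.182 for SKG against WT in NKT2, and -0.43, SE 0.21, edgeR adjusted p = 0.133 for NKT1 against NKT2 in WT). The difference between WT NKT17 (52.1, 29.5 and 28.8 CPM) and WT NKT2 (-0.46, SE 0.21, edgeR adjusted p = 0.136) was called without WT NKT17 replicate 1 (-0.78, edgeR adjusted p = 0.00884).

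**Figure D3:**
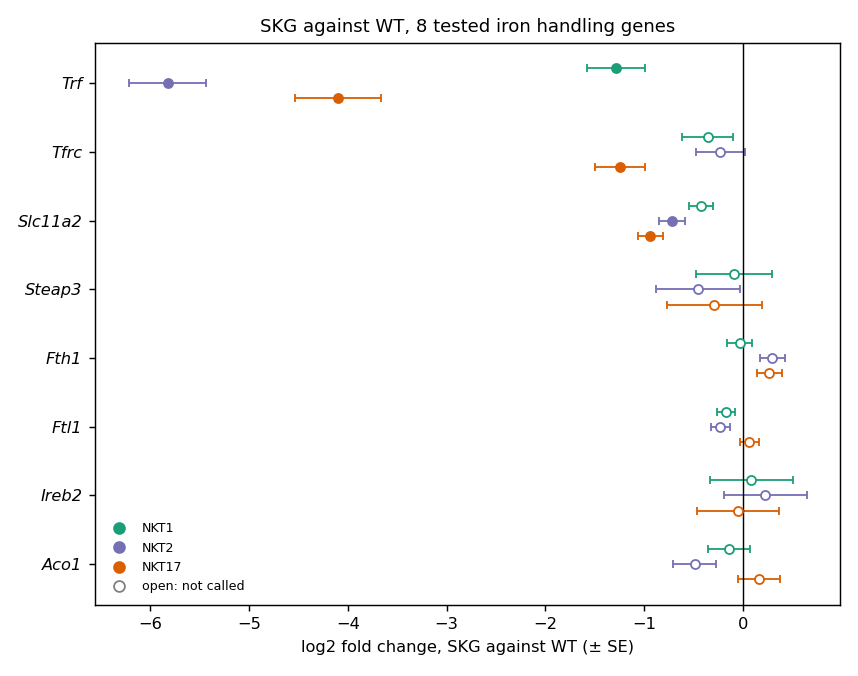
log2 fold change of SKG against WT with its SE for the 8 tested genes in NKT1, NKT2 and NKT17, where filled points were called and open points were not. Trf lies far from the rest in NKT2 (-5.82) and NKT17 (-4.10), Slc11a2 is below 0 in each subset, and the ferritin and regulatory genes lie within 0.5 log2 units of 0.

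**Figure D4:**
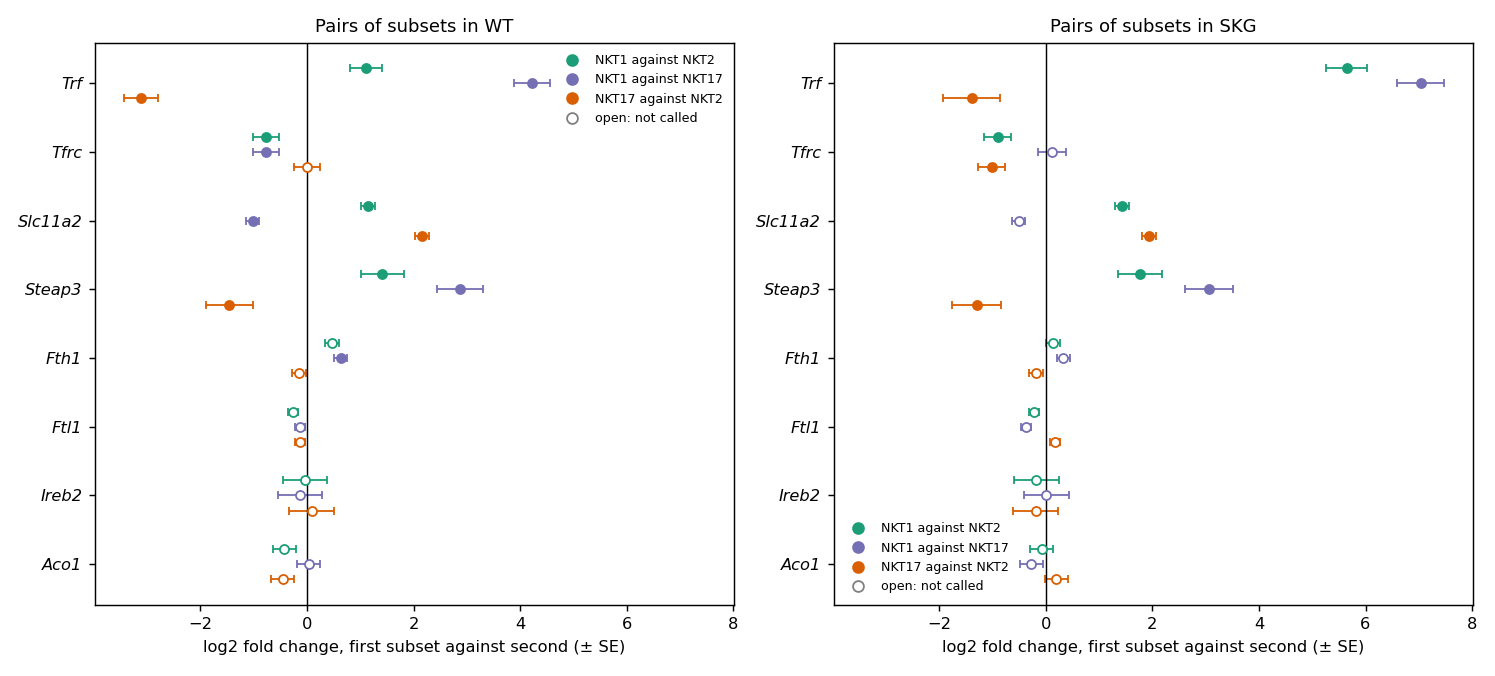
log2 fold change of each pair of subsets with its SE, in WT (left) and SKG (right), where filled points were called. Trf and Steap3 descend from NKT1 to NKT2 to NKT17 in both panels, Slc11a2 is highest in NKT17 in both, and Trf steps are largest in SKG NKT1 against NKT17 (7.03).

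The carrier and uptake genes thus had different orders over the subsets, with Trf and Steap3 highest in NKT1, Slc11a2 highest in NKT17 and Tfrc highest in NKT2 and, in WT mice, NKT17. These are transcript levels, and iron uptake by the cells was not measured. By likeness over the 18 libraries (Pearson r of log2 CPM among 8626 other genes averaging 50 counts or more), the genes nearest to Trf were Slbp (0.961), Spry2 (0.939), Tspan4 (0.932), Frmd8 (0.930) and Arap3 (0.930). Spry2 had mean levels of 471 CPM in WT NKT1, 49.4 in WT NKT2 and 27.8 in WT NKT17, and of 78.0, 2.24 and 1.60 CPM in the SKG subsets in the same order. Mean levels in WT and SKG NKT2 were 298 and 185 CPM for Slbp and 433 and 303 CPM for Frmd8. They were 25.0 and 4.56 CPM for Tspan4, 15.6 and 1.88 CPM for Arap3, and 326 and 5.75 CPM for Trf. A high r thus did not mean a fall of like size. The genes nearest to Tfrc were Jarid2 (0.923), Larp7 (0.893), Cenpa (0.876), Pitpnm2 (0.866) and Tacc3 (0.855), of which Cenpa and Tacc3 act in cell division. The libraries of a group share its subset and genotype, so these values describe group patterns and carry no p.

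Beyond the 9 members, 79 other genes of iron biology were read from 3 lists, and 55 of them were tested. Of 12 tested genes of other iron transport, storage and sensing, 24 of iron-sulphur cluster assembly and 19 of haem, few were called in SKG against WT cells. In NKT1, 1 was higher and 1 lower (3.27% of all genes were called). In NKT2, 2 were higher and 1 lower (7.95%), and in NKT17, 1 was higher and none lower (8.37%). The median log2 fold change of the 55 genes in the same order of subsets was 0, -0.06 and 0.09.

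The genes called in NKT2 were Slc25a28 (mitoferrin 2, which brings iron into mitochondria), higher in SKG at 16.1 against 6.47 CPM (1.33, SE 0.36, edgeR adjusted p = 0.0229), Ppox (an enzyme of haem synthesis), higher at 27 against 17.4 CPM (0.64, SE 0.22, edgeR adjusted p = 0.0820), and Fdxr (ferredoxin reductase, which feeds electrons to cluster assembly), lower at 28.3 against 47.4 CPM (-0.74, SE 0.21, edgeR adjusted p = 0.0324). In NKT1 they were Slc46a1 (a folate and haem carrier), at 4.47 against 1.91 CPM (1.24, SE 0.36, edgeR adjusted p = 0.0657), and Hmox1 (haem oxygenase), at 0.590 against 3.74 CPM (-2.65, SE 0.75, edgeR adjusted p = 0.0594). These last were below the count set for naming genes and were named after their values were seen. Slc46a1 held in 6, Ppox in 7, Hmox1 in 8, Fdxr in 11 and Slc25a28 in 13 of 14 alternatives.

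Alad, the second enzyme of haem synthesis, was the one gene of these lists called in SKG NKT17, at 52.9 ± 10.4 CPM (SD, n = 3) against 33.5 ± 8.46 CPM in WT (0.66, SE 0.18, edgeR adjusted p = 0.0193). It was not called in SKG NKT1, at 105 ± 11.2 CPM against 136 ± 6.91 CPM, or in SKG NKT2, at 58.5 ± 1.36 against 71.2 ± 14.5 CPM. The effect in NKT17 exceeded that in NKT1 by 1.04 (SE 0.24, edgeR adjusted p = 0.0214) and that in NKT2 by 0.95 (SE 0.25, edgeR adjusted p = 0.0579). The call in NKT17 was lost without WT NKT17 replicate 1 or 3 or SKG NKT17 replicate 1 (edgeR adjusted p up to 0.143), and the difference from NKT2 was called in 12 of 20 alternatives.

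Between WT subsets, 8 of the 55 genes were called between NKT1 and NKT2 (4 in each direction), where 27.5% of all genes were called. Between NKT1 and NKT17 the count was 7 (3 with more in NKT1, 4 with less), beside 24.7% of all genes, and between NKT17 and NKT2 it was 8 (3 with more in NKT17, 5 with less), beside 20.0%. The genes that met the rule for naming are listed next. Alad, Abcb10 and Isca1 had more, and Slc46a1, Hscb and Alas1 less, in NKT1 than in NKT2. Alad and Exoc6 had more, and Slc46a1, Slc39a8 and Mcoln1 less, in NKT1 than in NKT17. Abcb10, Slc39a8 and Slc25a28 had more, and Alad, Slc46a1, Exoc6 and Slc25a38 less, in NKT17 than in NKT2. Of these, fold changes are given for Alad and Slc46a1 alone, for how their orders stood to that of Trf. Alad followed the order of Trf, with NKT1 above NKT2 (0.93, SE 0.17, edgeR adjusted p = 0.000181) and above NKT17 (2.02, SE 0.18, edgeR adjusted p = 5.14e-09). Slc46a1 had the reverse of that start, at 1.91 CPM in WT NKT1, 23.6 in WT NKT2 and 11.1 in WT NKT17 (NKT1 against NKT2 -3.64, SE 0.34, edgeR adjusted p = 1.39e-08, and against NKT17 -2.55, SE 0.34, edgeR adjusted p = 2.65e-06). Among the 24 cluster assembly genes, Isca1 was higher and Hscb lower in NKT1 compared with NKT2, and none was called in the other pairs of WT subsets.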

How the data were processed

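The authors deposited a table of read counts per gene, not normalized, for poly-A selected, Smart-seq2 type libraries amplified by PCR without molecular identifiers. The study's methods state alignment to mm9 with TopHat and htseq-count in union mode, while the submitters' processing notes name TopHat 1.4.1, Bowtie 1.0.0, HTSeq 0.7.1 and the builds mm10 and hg19. Annotation and strand setting are not given in the sources used here. 2 columns of the table matched no sample and were not used. Groups came from the labels. Some marker genes are not reported here and were left out of the marker sums. The members and gene lists were chosen with earlier results of these data known.

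edgeR 4.0.16 (R 4.3.3, limma 3.58.1) fitted all 18 libraries with TMM scaling, its expression filter and a robust quasi-likelihood test with 12 residual degrees of freedom (two-sided, Benjamini-Hochberg over 11118 genes). The common biological coefficient of variation was 21.1%. Alternatives were RLE and upper-quartile scaling, DESeq2 1.42.0, no filter, an adjusted p under 0.05, no fold minimum, only the libraries compared, a replicate block and leaving out each library. The analysis was tested on simulated data. Genes of the other iron lists were named, in SKG against WT and in pairs of WT subsets, if called, if the higher group averaged 50 counts or more and if libraries did not overlap, up to 5 a direction. Pairs of SKG subsets were not described for these lists. For RPKM, exon lengths came from GENCODE M1 (NCBIM37). An overlapping readthrough gene model also bears the symbol Trf and shares 2108 exonic bases with it, and the table has 1 row for that symbol. Replicates differed by 5.42 to 24.4 times the sampling noise (chi-square per degree of freedom), so none was a repeated deposit.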

Additional observations from a re-analysis of the deposited data

Results flagged for a closer look

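The SKG effect on Trf differed between subsets by a test of the difference itself, fitted across all 18 libraries. It was more negative in NKT2 than in NKT1 by -4.536 log2 units (SE 0.48, edgeR adjusted p = 8.71e-05) and more negative in NKT17 than in NKT1 by -2.813 (SE 0.54, edgeR adjusted p = 0.0125). Both differences were called under all 20 alternatives, from -4.72 to -4.40 and from -4.10 to -2.27 log2 units. With 3 libraries a group, single libraries were not examined as outliers.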

How the results depend on the processing

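Over the log2 fold changes printed above, 879 of 956 alternative values kept their direction and their side of the thresholds, 15 gained and 56 lost a call, and 6 changed sign. The 6 concerned Ireb2 in WT, a difference not called with all libraries, which became 0.09, 0.07, 0.35 and 0.04 for NKT1 against NKT2 without WT NKT2 replicate 1, WT NKT1 replicate 2, WT NKT1 replicate 3 and WT NKT2 replicate 3, and 0.27 and 0.0080 for NKT1 against NKT17 without WT NKT1 replicate 3 and WT NKT17 replicate 3. Without WT NKT1 replicate 1 these Ireb2 differences were called, at -0.84 and -0.92. Another 44 differences of members have no fold change in the text. None of their 712 alternative values was called, and 52 of these values changed sign. Member differences called under any alternative were among those printed, so the absence of calls here follows from what was printed. The count of members called in SKG against WT was 2 in NKT1 with no fold minimum, 5 in NKT1 against NKT17 of SKG mice with no fold minimum, and 1 with DESeq2 for the SKG effect in NKT17 minus NKT2. The count of other iron genes called in SKG against WT fell from 2 to 0 in NKT1 with an adjusted p under 0.05 and with only the libraries compared, was 5 in NKT2 with DESeq2 and 2 in NKT17 with no fold minimum, and with no fold minimum was 16, 14 and 13 in the 3 pairs of WT subsets, where it had been 8, 7 and 8. Shares of all tested genes called were taken from the main fit alone. The counts here and below, under other settings or without a library, thus cannot be weighed against such a share.

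Leaving out 1 library at a time gave 0 to 1, 1 to 2 and 3 to 3 members called in SKG against WT of NKT1, NKT2 and NKT17, 4 to 5, 3 to 6 and 3 to 4 in WT NKT1 against NKT2, NKT1 against NKT17 and NKT17 against NKT2, 4 to 4, 2 to 3 and 2 to 4 in the same pairs in SKG, and 1 to 1, 1 to 2 and 0 to 1 for the SKG effect in NKT2 minus NKT1, NKT17 minus NKT1 and NKT17 minus NKT2. For the other iron genes the ranges were 0 to 2, 0 to 5 and 0 to 2 in SKG against WT and 7 to 12, 8 to 12 and 6 to 9 in the WT pairs.

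The titles share tokens across groups that may mark a replicate. The token 7_5 was on WT libraries alone and 7_21 on SKG libraries alone, while 7_10 and 7_11 were on both. What the tokens mark is not given. If they mark a batch, genotype is partly confounded with it, and only 7_10 and 7_11 set WT beside SKG within a token. Deviations from group means of libraries with the same token had a correlation of -0.06 to 0.35 within a genotype (12 of 18 pairs over 0.1) and of -0.15 to 0.09 between genotypes (0 of 18), so the tokens were not taken to pair WT with SKG. Within a genotype the subsets of a token may be paired, and the main fit had no term for this. P-values between subsets, and for the SKG effect between subsets, carry that limit. The block gave WT and SKG libraries of a token a shared term, so it does not check a pairing within each genotype. With the replicate block by token, 0, 5 and 3 other iron genes were called in SKG against WT of NKT1, NKT2 and NKT17, where they had been 2, 3 and 1. Under the block the 1 member call that was lost was Trf in NKT17 against NKT2 of SKG mice (edgeR adjusted p = 0.141). Depth limits Slc40a1, Steap3 in NKT17 and Trf in SKG NKT17, which rest on a few counts a library.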

Other observations

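Around Trf on chromosome 9, the protein-coding genes within 500000 bases that passed the filter were Srprb, Topbp1 and Cdv3, looked up after the fall of Trf was seen. Srprb starts 1864 bases beyond the end of Trf and had mean levels of 80.2, 107 and 107 CPM in WT NKT1, NKT2 and NKT17 and 94.4, 98.8 and 92.2 CPM in the SKG subsets. WT and SKG libraries overlapped for each of the 3 genes in every subset, and none was called in SKG against WT. Of all tested genes, 3.27% were called in NKT1, 7.95% in NKT2 and 8.37% in NKT17. At these shares no call among 3 genes is common, so it says little about the region around Trf.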
